A study of Homo sapiens with 6 samples.

Results

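The genes described here encode the machinery of mitosis: regulators of entry from G2 phase, condensin and other chromosome-shaping proteins, spindle motors, kinetochore and checkpoint proteins, and proteins of anaphase and cytokinesis. The set holds 54 named genes, chosen by name as rows of the deposited count and TPM tables, of the 57914 genes in the tables. All 54 were found once each and all were expressed highly enough to be tested, with 362 to 26310 counts in a library. RNA was measured in A375, an established human melanoma cell line grown in high-glucose DMEM with fetal calf serum and L-glutamine. Cells given Aldefluor, a substrate that aldehyde dehydrogenases (ALDH) turn into a trapped fluorescent product, were sorted by flow cytometry into the 5% with the highest signal (ALDH_High) and the 5% with the lowest signal (ALDH_Low); the labels name no other treatment. Each group has 3 libraries, numbered 1 to 3, and nothing in the labels says whether they came from separate cultures, so p-values measure the spread between these libraries, which may be technical. The sort was on enzyme activity in 1 cell line, and a measurement of DNA content or cell cycle stage was not analysed here.

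Dividing cells switch on mitosis genes together late in the cycle. In textbook accounts, the MuvB core complex binds a short promoter element, the cell cycle homology region (CHR), and acts as a repressor within the DREAM complex in resting cells and as an activator with MYBL2 (the MMB complex) and later FOXM1 in G2 phase. CCAAT boxes, bound by NF-Y, often lie close by. Cyclin-dependent kinase 1 with cyclins A and B then drives entry into mitosis, and the anaphase-promoting complex ends it by marking cyclin B and securin for destruction.

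Total counts per library were between 26692868 and 37830603, and levels are given as CPM (library-size-scaled counts), or as deposited TPM where genes are compared with each other per length. ALDH1A3, the gene in the study's title, had 683, 1149 and 1088 CPM in libraries 1 to 3 of ALDH_High, against 345, 419.5 and 403 CPM in those of ALDH_Low, so library 1 of ALDH_High lay nearest to ALDH_Low. That library also stood apart from ALDH_High libraries 2 and 3 on the second principal component of all genes, at 49.1 against -22.02 and -32.5. Mitochondrially encoded genes took 1.31% to 1.66% of counts in ALDH_High and 2.00% to 3.06% in ALDH_Low, a shift whose part in the results below was not tested. Of 8 melanocyte lineage markers, SOX10 and S100B rose in ALDH_High and MITF fell, PMEL had 5 to 19 counts a library and did not pass, and MLANA, TYR, TYRP1 and DCT were too low to be tested. The summed level of these 8 was 629 to 860.3 CPM in ALDH_High and 208 to 233 CPM in ALDH_Low. Most of it came from SOX10, with 585 to 810 CPM in ALDH_High and 174 to 210 CPM in ALDH_Low. The part of this sum in the results was not tested. Of 10 white blood cell markers, CD2 and MS4A1 were at 0 in every library and PTPRC, which marks white blood cells in general, had 1 to 4 counts a library. The 4 that could be tested went both ways: LYZ was higher in ALDH_High (log2 fold change 1.65, edgeR adjusted p 0.0240), CD14 (-1.96, 0.0142) and CD68 (-1.86, 0.000273) were lower and LAPTM5 did not pass. The summed level of the 10 was 14.6 to 30.5 CPM in ALDH_High and 59.3 to 70.5 CPM in ALDH_Low, most of it from CD68, a lysosomal gene that is not limited to white blood cells; its part in the results was not tested.

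Promoter stretches of 9 members are shown because the CHR and the CCAAT box are what mitosis genes are best known to share, and the rule that chose the members did not use sequence. Each runs 5′ to 3′ on the gene's strand from 120 to 21 bases upstream of the gene's RefSeq start (GRCh38.p14) and overlaps no exon of GENCODE 44; capitals mark TTTGAA or TTCGAA (CHR) and CCAAT, on either strand. The first 5 genes rose in ALDH_High and the last 4 did not pass the test in either direction. These 9 are examples not drawn by a set rule, so a contrast among them is not a result. Counts over all matched members are given below.
GTSE1 (chr22:46296750-46296849, plus strand): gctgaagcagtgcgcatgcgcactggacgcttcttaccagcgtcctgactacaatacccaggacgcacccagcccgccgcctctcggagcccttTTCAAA
NCAPG (chr4:17810859-17810958, plus strand): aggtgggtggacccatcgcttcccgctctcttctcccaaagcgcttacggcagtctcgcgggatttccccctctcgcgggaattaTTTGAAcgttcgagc
ESPL1 (chr12:53268179-53268278, plus strand): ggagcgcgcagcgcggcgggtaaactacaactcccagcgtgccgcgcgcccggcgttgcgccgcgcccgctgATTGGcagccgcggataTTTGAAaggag
KIF4A (chrX:70289984-70290083, plus strand): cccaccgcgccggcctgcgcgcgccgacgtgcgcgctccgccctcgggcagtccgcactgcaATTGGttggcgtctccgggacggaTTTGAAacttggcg
TOP2A (chr17:40417917-40418016, minus strand): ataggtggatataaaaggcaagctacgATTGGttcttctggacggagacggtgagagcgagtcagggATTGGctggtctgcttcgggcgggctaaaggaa
CCNB1 (chr5:69167030-69167129, plus strand): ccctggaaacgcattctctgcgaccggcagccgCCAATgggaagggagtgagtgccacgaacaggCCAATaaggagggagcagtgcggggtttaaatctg
CCNB2 (chr15:59105026-59105125, plus strand): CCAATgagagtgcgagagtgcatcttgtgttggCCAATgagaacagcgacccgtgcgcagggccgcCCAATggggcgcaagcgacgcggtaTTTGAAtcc
CDC20 (chr1:43358861-43358960, plus strand): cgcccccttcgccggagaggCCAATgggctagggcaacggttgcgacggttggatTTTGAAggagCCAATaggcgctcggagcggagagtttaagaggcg
PTTG1 (chr5:160421735-160421834, plus strand): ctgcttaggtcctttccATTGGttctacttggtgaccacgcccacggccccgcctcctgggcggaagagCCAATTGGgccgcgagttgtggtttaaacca
GTSE1, NCAPG, ESPL1 and KIF4A, which rose, hold a CHR match ending between 21 and 30 bases before the start, and CCNB2, which did not pass, holds one ending 24 bases before it. CDC20 holds its match farther up, between 65 and 60 bases before the start, between a pair of CCAAT boxes. TOP2A, CCNB1 and PTTG1 have 2 or more CCAAT matches and neither TTTGAA nor TTCGAA in the stretch shown. No other form of the CHR was searched. In PTTG1 the run of capitals CCAATTGG is 2 overlapping matches, one on each strand.

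RefSeq promoter windows of 300 bases (250 before the start and 50 from it) were at hand for 46 of the 54 members, with 57 windows. The risers UBE2C, AURKA, TPX2, TTK, BIRC5 and RACGAP1 had none, nor had FOXM1 and BUB3, which did not pass. TTTGAA or TTCGAA was found on either strand in 40 of these 57 windows (70.2%), against 16.4% of all 35116 windows. CCAAT was found in 42 of 57 (73.7%), against 34.6% of all windows, and both motifs in 33 of 57 (57.9%) against 6.38%. Counted by gene, 22 of the 27 matched members that rose (81.5%) held a CHR match in at least 1 window, as did 15 of the 19 that did not pass (78.9%). Both motifs together were held by 20 of 27 (74.1%) and 11 of 19 (57.9%). Over all 27305 genes with a window, 19.5% held a CHR match and 7.85% held both motifs. These are counts of letters, with no test, and a match is not a shown binding site.

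Most mitosis genes were more abundant in ALDH_High than in ALDH_Low. The set was chosen with earlier results of these data known, so its counts are a description and not independent support. Of the 54, 33 (61.1%) rose and 0 fell past the 0.05 threshold on the edgeR p adjusted over all 17047 genes tested, where 10.8% of all genes tested rose and 9.83% fell. The other 21 did not pass; at an unadjusted p below 0.05 the counts were 37 higher and 0 lower, and DESeq2 gave 34 and 0. The fitted log2 fold change was above 0 in 51 members, with a median of 0.53 against -0.013 over all genes tested, and 10 of the risers had a log2 fold change of at least 1 (5.89% of all genes). In 36 members every ALDH_High library lay above every ALDH_Low library, and in 0 below; over all genes these shares were 18.6% and 19.1%. In bulk RNA, a larger share of cells in G2 phase or mitosis and more RNA of these genes per cell cannot be told apart. Leaving out 1 library gave between 24 and 39 members higher and 0 lower, with medians from 0.48 to 0.58.

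**Figure D1:**
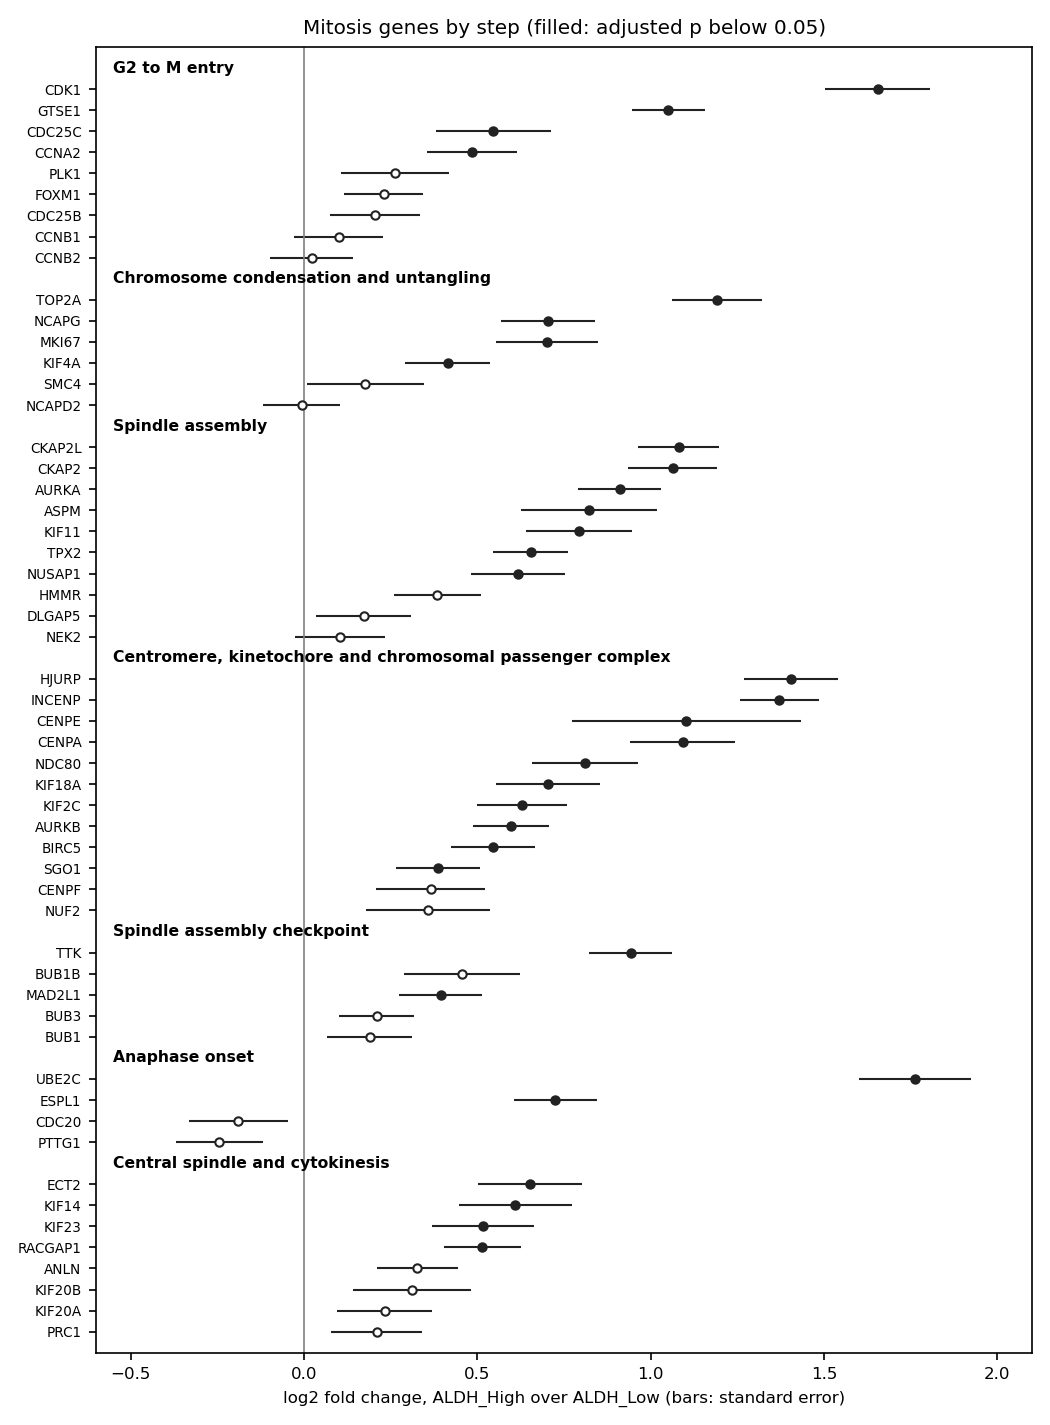
Fitted log2 fold change of each of the 54 genes (ALDH_High over ALDH_Low, points with standard error bars, 3 libraries a group), ordered within each step of mitosis; filled points had an edgeR adjusted p below 0.05. All 33 filled points lie above 0, from SGO1 and MAD2L1 at 0.39 to UBE2C at 1.76. CDC20, PTTG1 and, at -0.007, NCAPD2 lie below 0 without passing.

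At entry into mitosis, 4 of 9 genes rose: CDK1, GTSE1, CDC25C and CCNA2. CDK1 (ENSG00000170312, chromosome 10, 60778331 to 60794852, GRCh38) encodes the kinase that drives mitosis. Its level was 149, 162 and 181 CPM in libraries 1 to 3 of ALDH_High, against 55.8, 41.3 and 59.3 CPM in those of ALDH_Low. The groups lay far apart, at 164 ± 15.9 and 52.1 ± 9.56 CPM (SD, n = 3), a log2 fold change of 1.66 (SE 0.15, edgeR adjusted p 5.60e-05) or 3.15-fold. GTSE1 (chromosome 22, 46296870 to 46330810), a microtubule-binding protein of G2 phase and mitosis, had 105, 100.5 and 114 CPM in ALDH_High and 50.7, 52.4 and 51.3 CPM in ALDH_Low. Its 3 ALDH_Low libraries were almost alike, and the log2 fold change was 1.05 (SE 0.10, edgeR adjusted p 9.46e-05). CDC25C, a phosphatase that activates CDK1, was scarce, with 25.5, 17.5 and 21.02 CPM against 15.4, 15.3 and 13.01 CPM. These groups did not overlap but came close, with library 2 of ALDH_High at 17.5 CPM the nearest (edgeR log2 fold change 0.55 ± 0.17 SE, adjusted p 0.0421). CCNA2, cyclin A2, had a log2 fold change of 0.48 (edgeR adjusted p 0.0248).

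The B-type cyclins, partners of CDK1 in mitosis, did not pass the test. CCNB2 had the smallest difference of the step, with 130.2, 106 and 131 CPM in ALDH_High and 114, 118 and 129 CPM in ALDH_Low, so the groups lay on top of each other (edgeR log2 fold change 0.022 ± 0.12 SE, adjusted p 0.924). CCNB1, added here after its values were seen, had 421, 308 and 384 CPM and 328, 364 and 346 CPM, with library 2 of ALDH_High below every ALDH_Low library (0.099, SE 0.13, edgeR adjusted p 0.653). The Polo kinase gene PLK1 (0.26), the transcription factor gene FOXM1 (0.23) and the phosphatase gene CDC25B (0.21) had log2 fold changes above 0 and adjusted p from 0.200 to 0.320. The call for CDC25C was lost without any 1 of 5 libraries (all but ALDH_High library 2; log2 fold changes 0.41 to 0.60) and that for CCNA2 without ALDH_High library 3 (0.37), ALDH_Low library 1 (0.44) or ALDH_Low library 3 (0.47), which left 2 of 9 genes higher without any of those 3 libraries. The median of the step was 0.15 without ALDH_High library 1, against 0.26 with all libraries.

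**Figure D2:**
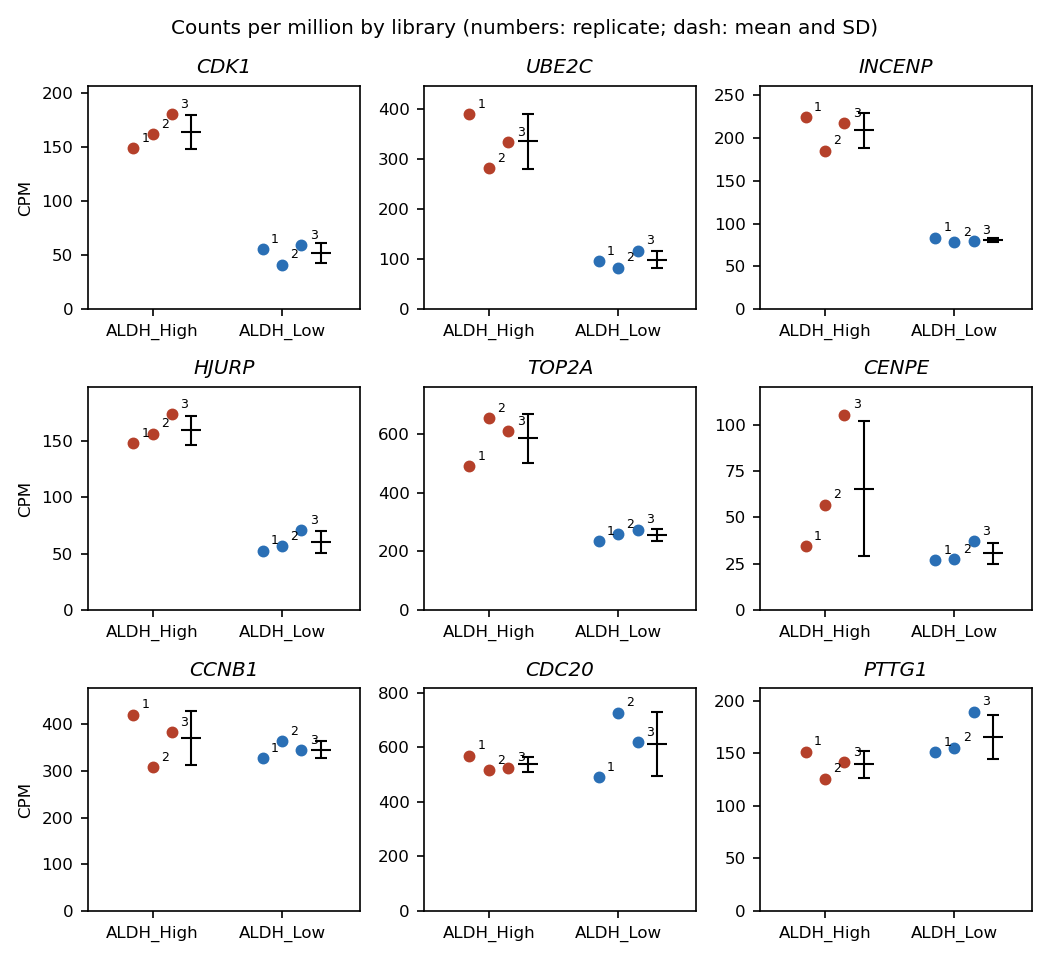
Level in CPM (linear axis from 0) of 9 mitosis genes in each library, with replicate numbers beside the points and the mean and SD of each group as a dash with bars. CDK1, UBE2C, INCENP, HJURP and TOP2A have all ALDH_High points above all ALDH_Low points, CENPE spreads from 34.5 to 105 CPM within ALDH_High, and the groups overlap for CCNB1, CDC20 and PTTG1.

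Among genes that shape and untangle chromosomes, 4 of 6 rose: TOP2A, NCAPG, MKI67 and KIF4A. TOP2A (chromosome 17, 40388525 to 40417896), the topoisomerase that untangles sister DNA, had 489.9, 653 and 609.6 CPM in ALDH_High and 236, 258 and 274 CPM in ALDH_Low. Its lowest ALDH_High library, library 1, was still well above the highest ALDH_Low library (edgeR log2 fold change 1.19 ± 0.13 SE, adjusted p 0.000168). MKI67, which coats mitotic chromosomes and is the proliferation marker Ki-67, had 547, 708 and 771 CPM and 378, 395 and 474 CPM. It too was lowest in ALDH_High library 1, without overlap (0.70, SE 0.15, edgeR adjusted p 0.00748). KIF4A, a chromosome-bound motor, had a log2 fold change of 0.41 (edgeR adjusted p 0.0392).

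Of the 3 condensin subunits in the set, NCAPG passed the test and NCAPD2 and SMC4 did not. NCAPG, a regulatory subunit of condensin I, had 141, 147 and 185 CPM in ALDH_High and 104, 85.5 and 102 CPM in ALDH_Low, with no overlap (edgeR log2 fold change 0.70 ± 0.14 SE, adjusted p 0.00477). NCAPD2, another subunit of condensin I, had 492, 427 and 435 CPM and 425, 494 and 442 CPM, so the groups covered the same range (-0.007, SE 0.11, edgeR adjusted p 0.976). SMC4, the ATPase subunit shared by both condensins and added here after its values were seen, had 165, 255 and 253 CPM and 180.3, 195 and 222 CPM and did not pass (0.18, edgeR adjusted p 0.525). ALDH_High library 1 was the lowest of all 6 for SMC4, and without it the log2 fold change was 0.37 (edgeR adjusted p 0.0316). Outside the set, NCAPH of condensin I rose (0.43, edgeR adjusted p 0.0152) and SMC2, the partner of SMC4, did not pass (0.34, 0.155). The call for KIF4A was lost without any 1 of the 5 libraries other than ALDH_High library 1, with log2 fold changes from 0.33 to 0.48.

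Of the 10 spindle assembly genes, 7 rose: CKAP2L, CKAP2, AURKA, ASPM, KIF11, TPX2 and NUSAP1. CKAP2L (chromosome 2, 112736349 to 112764664), a mitotic spindle protein, had 76.9, 95.7 and 88.00 CPM in ALDH_High and 43.03, 39.7 and 40.5 CPM in ALDH_Low (edgeR log2 fold change 1.08 ± 0.12 SE, adjusted p 0.000165). Its relative CKAP2 (chromosome 13, 52455429 to 52476628), which promotes microtubule growth, had 106, 123 and 143 CPM and 60.6, 60.6 and 57.05 CPM (1.06, SE 0.13, edgeR adjusted p 0.000294). Both had ALDH_Low libraries close together and all ALDH_High libraries well above them. AURKA (chromosome 20, 56369389 to 56392337), the Aurora kinase of centrosomes and spindle poles, had 243, 198 and 244 CPM and 112, 128 and 124 CPM, again without overlap (0.91, SE 0.12, edgeR adjusted p 0.000509). TPX2, which activates AURKA on the spindle, had a log2 fold change of 0.65 (edgeR adjusted p 0.00209). For KIF11, the motor that pushes the poles apart, it was 0.79 (0.00459). ASPM, a spindle pole scaffold, had 0.82 (0.0140), and NUSAP1, which bundles microtubules near chromatin, 0.62 (0.00957).

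NEK2, a kinase that splits the centrosomes, had the smallest difference of the step, with 47.1, 47.6 and 57.5 CPM in ALDH_High and 41.9, 51.3 and 48.4 CPM in ALDH_Low. The groups overlapped (edgeR log2 fold change 0.10 ± 0.13 SE, adjusted p 0.640). HMMR (0.38, edgeR adjusted p 0.0551) and DLGAP5 (0.17, 0.437), both microtubule-binding spindle proteins, did not pass either. HMMR passed without ALDH_High library 1 (0.46, edgeR adjusted p 0.0246), and ASPM lost its call without ALDH_Low library 2 (0.72, 0.0630). AURKA, TPX2 and CKAP2 lie on chromosomes 20 and 13, as do UBE2C and CDC25B on 20; NDC80 lies on 18. Of these 6 members on chromosomes 13, 18 and 20, 5 rose. Outside these chromosomes, where 48 of the members lie, 28 rose and the median log2 fold change of the members was 0.50. The share of all genes that rose on each chromosome was not counted, and the part of chromosome in the results was not tested.

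Centromere, kinetochore and chromosomal passenger genes followed, with 10 of 12 higher past the threshold and all 12 with a log2 fold change above 0. HJURP (chromosome 2, 233833416 to 233854566), the chaperone that loads the centromeric histone CENP-A, had 148, 156 and 174 CPM in ALDH_High and 52.6, 56.9 and 71.03 CPM in ALDH_Low. Every ALDH_High library lay far above the highest ALDH_Low library (edgeR log2 fold change 1.41 ± 0.14 SE, adjusted p 8.16e-05, 2.65-fold). CENPA itself had a log2 fold change of 1.09 (edgeR adjusted p 0.000712). INCENP (chromosome 11, 62123998 to 62153169), the scaffold of the chromosomal passenger complex, had 224, 185 and 217 CPM and 83.6, 78.6 and 79.9 CPM. Its difference had the smallest p of all 54 members (1.37, SE 0.11, edgeR adjusted p 3.18e-05), at rank 132 of the 17047 genes tested.

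The partners of INCENP in that complex also rose on the log2 scale, AURKB, its kinase, by 0.60 (edgeR adjusted p 0.00342) and BIRC5, survivin, by 0.55 (0.00986). CDCA8, borealin, the remaining core subunit and not of the set of 54, had a log2 fold change of 0.90 (0.000570). NDC80, which binds microtubules at the outer kinetochore, had 0.81 (0.00433). Its direct partner NUF2 had 60.5, 71.6 and 98.97 CPM in ALDH_High and 54.6, 56.7 and 69.2 CPM in ALDH_Low, overlapping, and did not pass (0.36, SE 0.18, edgeR adjusted p 0.203). SPC24 (0.18, edgeR adjusted p 0.331) and SPC25 (0.36, 0.344), of the same complex but outside the set, did not pass either. The motors KIF2C (0.63, edgeR adjusted p 0.00666) and KIF18A (0.70, 0.00810), which shorten microtubules at kinetochores, rose, as did SGO1 (0.39, 0.0463), the protector of centromeric cohesin. CENPF, a large kinetochore protein of G2 phase and mitosis, did not pass (0.37, edgeR adjusted p 0.137).

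CENPE, the kinesin that carries chromosomes to the spindle equator, was the only one of the 33 risers whose groups overlapped. It had 34.5, 56.9 and 105 CPM in libraries 1 to 3 of ALDH_High, against 27.1, 27.5 and 37.2 CPM in those of ALDH_Low. The ALDH_High libraries were spread widely, and library 1 lay within the range of ALDH_Low (edgeR log2 fold change 1.1 ± 0.33 SE, adjusted p 0.0393). Its call was lost without any 1 of the 5 libraries other than ALDH_High library 1, with a log2 fold change of 0.60 without ALDH_High library 3 and 1.03 to 1.27 without the others. SGO1 lost its call without each of the same 5 libraries (0.36 to 0.45). Without ALDH_High library 1, CENPF (0.52, edgeR adjusted p 0.0170) and NUF2 (0.52, 0.0406) passed.

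Of the 5 spindle assembly checkpoint genes, which hold back anaphase until all chromosomes are attached, TTK and MAD2L1 rose. TTK (chromosome 6, 80003887 to 80042527), the kinase MPS1 at the top of the checkpoint, had 51.04, 48.7 and 59.2 CPM in ALDH_High and 27.1, 26.9 and 28.7 CPM in ALDH_Low. Its 3 ALDH_Low libraries were nearly equal, and all ALDH_High libraries lay above them (edgeR log2 fold change 0.94 ± 0.12 SE, adjusted p 0.000418). MAD2L1, the checkpoint protein that captures CDC20, had 83.5, 79.7 and 90.99 CPM and 56.5, 67.1 and 69.95 CPM, without overlap (0.39, SE 0.12, edgeR adjusted p 0.0424). BUB1, the kinase that marks centromeres for the checkpoint, had the smallest difference of the step, with 93.4, 100.1 and 118 CPM and 83.2, 97.3 and 92.5 CPM, overlapping (0.19, SE 0.12, edgeR adjusted p 0.330). BUB3, the adaptor of both BUB kinases, had 0.21 (0.217) and BUB1B, which encodes BUBR1, 0.46 (0.0864). The call for MAD2L1 was lost without any 1 of the 5 libraries other than ALDH_High library 1 (0.32 to 0.46), leaving TTK as the only riser there, and BUB1B passed without ALDH_High library 1 (0.64, edgeR adjusted p 0.00513).

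Of the 4 genes of anaphase onset, UBE2C and ESPL1 rose and CDC20 and PTTG1 did not pass. UBE2C (chromosome 20, 45812576 to 45816957), the ubiquitin-conjugating enzyme of the anaphase-promoting complex, had the largest difference of the 54, with 390.4, 282 and 334 CPM in libraries 1 to 3 of ALDH_High, against 96.5, 82.8 and 117 CPM in those of ALDH_Low. The group means were 335 ± 54.4 and 98.8 ± 17.2 CPM (SD, n = 3; edgeR log2 fold change 1.76 ± 0.16 SE, adjusted p 5.60e-05), or 3.40-fold. ESPL1 (chromosome 12, 53268299 to 53293638), separase, the protease that cuts cohesin, had 188, 160.5 and 177 CPM and 102, 119 and 97.1 CPM and also rose without overlap (0.72, SE 0.12, edgeR adjusted p 0.00193). CDC20 (chromosome 1, 43358981 to 43363203), the activator that turns the complex on, had 569, 517 and 525 CPM in ALDH_High and 491, 727 and 619 CPM in ALDH_Low. Its ALDH_Low libraries spanned all ALDH_High libraries, and it did not pass (-0.19, SE 0.14, edgeR adjusted p 0.407). PTTG1, securin, which inhibits separase and is destroyed through CDC20, was added after its values were seen. It had 151, 126 and 141 CPM and 151, 155 and 189 CPM, overlapping at library 1 of each group, and did not pass (-0.24, SE 0.13, edgeR adjusted p 0.217).

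Of the 8 central spindle and cytokinesis genes, 4 rose: ECT2, KIF14, KIF23 and RACGAP1. ECT2 (chromosome 3, 172750682 to 172821474), the exchange factor that activates RhoA at the cell equator, had 90.9, 116 and 129 CPM in ALDH_High and 70.2, 80.3 and 63.2 CPM in ALDH_Low (edgeR log2 fold change 0.65 ± 0.15 SE, adjusted p 0.0116). KIF14, a midbody kinesin, had 55.6, 76.2 and 82.5 CPM and 46.1, 53.5 and 40.98 CPM (0.61, SE 0.16, edgeR adjusted p 0.0247). In both, ALDH_High library 1 lay just above the highest ALDH_Low library. KIF23 and RACGAP1 form centralspindlin, which recruits ECT2. KIF23 had 154, 189.6 and 225 CPM and 120.4, 131 and 146 CPM (0.52, SE 0.15, edgeR adjusted p 0.0325), and RACGAP1 had a log2 fold change of 0.51 (0.00904).

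PRC1, the bundler of antiparallel microtubules in the central spindle, had the smallest difference of the step, with 254, 283 and 326 CPM in ALDH_High and 216, 259 and 272 CPM in ALDH_Low, overlapping (edgeR log2 fold change 0.21 ± 0.13 SE, adjusted p 0.314). The midzone motors KIF20A (0.23, edgeR adjusted p 0.281) and KIF20B (0.31, 0.248) and the contractile ring scaffold ANLN (0.33, 0.0780) did not pass. The number of calls in this step changed when 1 library was left out. Between 1 (without ALDH_Low library 3) and 6 (without ALDH_High library 1) genes then rose. The count was 2 without ALDH_High library 2, ALDH_High library 3 or ALDH_Low library 1. The median log2 fold change of the step was 0.31 to 0.51 in these fits, against 0.42 with all libraries. Without ALDH_High library 1, ANLN (0.42) and KIF20B (0.50) also passed; KIF23 (0.39 to 0.59) lost its call without each of the other 5, KIF14 (0.51 to 0.61) without each of those but ALDH_Low library 2, and ECT2 (0.57) without ALDH_Low library 3.

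Per length, the order of the most abundant members was not the same in the groups. In ALDH_Low, deposited TPM placed CDC20 first (514 ± 102), then CCNB1 (405 ± 26.4), PTTG1 (340.2 ± 31.2), PLK1 (204 ± 27.2), BUB3 (203 ± 17.6) and UBE2C (190.2 ± 26.97; all mean TPM ± SD, n = 3). Libraries of CCNB1 and PTTG1 did not overlap, nor did those of PTTG1 and PLK1, while the other neighbours in this order overlapped. In ALDH_High, UBE2C was first (668 ± 78.8 TPM), ahead of CDC20 (466 ± 11.8), CCNB1 (448 ± 57.2), PTTG1 (298 ± 20.96), PLK1 (252 ± 35.5) and BUB3 (244 ± 30.5). Here the libraries of UBE2C and CDC20 did not overlap, nor did those of CCNB1 and PTTG1, while the ranges of the other neighbours overlapped. Compared within each library, PTTG1 also lay above PLK1 throughout ALDH_High, as CDC20 did above CCNB1 throughout ALDH_Low. The 54 genes together made up 6284, 6462 and 7547 TPM in ALDH_High libraries 1, 2 and 3 and 4433, 4979 and 4755 TPM in ALDH_Low libraries 1, 2 and 3.

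Ratios of TPM between partner genes within a library, which do not depend on how libraries are scaled, were compared for 11 pairs. The pairs were picked after their values were seen, and the smallest p that an exact two-sided permutation test can give for 3 against 3 libraries is 0.1 (0.138 adjusted over the 11 pairs). UBE2C stood at 2.41, 2.097 and 2.21 times the TPM of PTTG1 in ALDH_High libraries 1, 2 and 3 and at 0.598, 0.499 and 0.578 times in ALDH_Low libraries 1, 2 and 3. Against CDC20 the UBE2C ratio was 1.43 ± 0.165 in ALDH_High and 0.383 ± 0.105 in ALDH_Low (SD, n = 3). Per length, UBE2C was above CDC20 and PTTG1 in every ALDH_High library and below both in every ALDH_Low library. CDK1 stood at 0.439 ± 0.0859 of CCNB1 in ALDH_High and at 0.147 ± 0.0323 in ALDH_Low. INCENP stood at 1.06 ± 0.0241 of BIRC5 against 0.604 ± 0.0722, and at 0.551 ± 0.0395 of AURKB against 0.325 ± 0.0388.

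Further pairs were NCAPG over NCAPD2 (0.533 ± 0.105 in ALDH_High, 0.326 ± 0.0571 in ALDH_Low), NDC80 over NUF2 (0.934 ± 0.0982 and 0.668 ± 0.0394) and AURKA over TPX2 (0.948 ± 0.0516 and 0.794 ± 0.00987), all SD with n = 3. In these 8 pairs the groups did not overlap. In the other 3 they did: HJURP over CENPA (1.33 ± 0.233 and 1.06 ± 0.156; exact permutation p 0.3), BUB1B over BUB3 (0.277 ± 0.0487 and 0.235 ± 0.0260; exact permutation p 0.3) and CCNB1 over CCNB2 (4.02 ± 0.243 and 3.83 ± 0.270; exact permutation p 0.4). CCNB1 over CCNB2 lay between 3.55 and 4.30 in all 6 libraries. Because the pairs were picked after their values were seen, the count without overlap adds no support beyond the single-gene values.

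**Figure D3:**
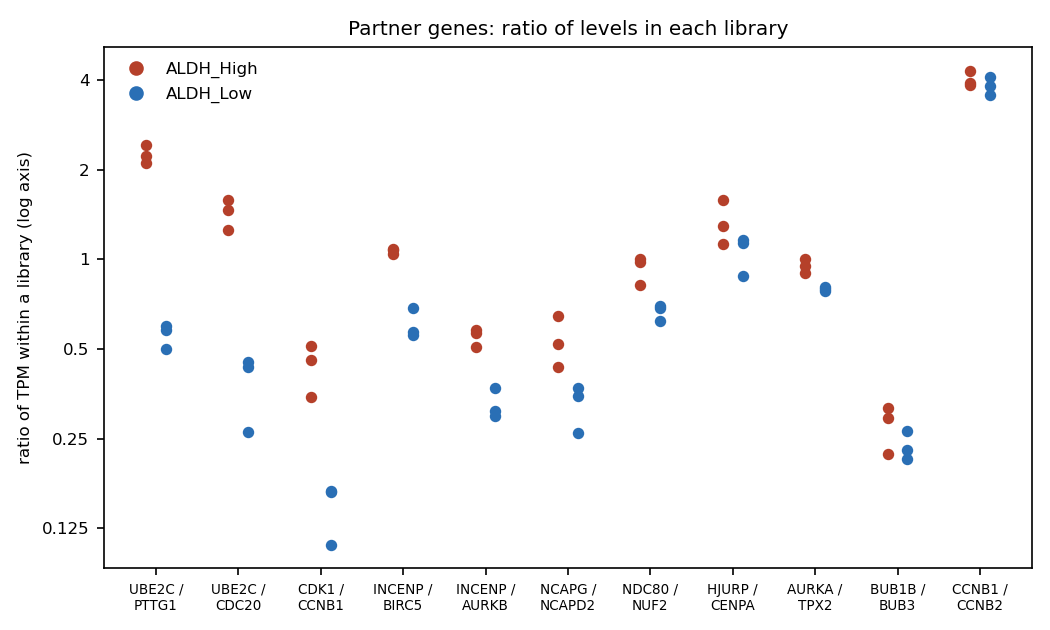
Ratio of the TPM of 11 pairs of mitosis genes within each library (log axis, 1 point a library, 3 libraries a group). UBE2C over PTTG1 lies above 2 in all ALDH_High libraries and below 0.6 in all ALDH_Low libraries, while CCNB1 over CCNB2 lies near 4 in both groups.

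Libraries of a group were not alike in these genes. Taking each gene's log2 CPM minus its mean of the 6 libraries, the members' median was 0.17, 0.25 and 0.39 in ALDH_High libraries 1, 2 and 3 and -0.35, -0.20 and -0.20 in ALDH_Low libraries 1, 2 and 3, against at most 0.018 for all genes. The groups did not overlap in this median. Library 3 of ALDH_High held the highest level of all 6 libraries for 37 members, library 1 for 11 and library 2 for 3, and ALDH_Low library 1 held the lowest for 30. Steps did not share 1 order: entry genes had their highest median in ALDH_High library 1 (0.31, against -0.032 in library 2 and 0.11 in library 3), while spindle genes (0.083, 0.26 and 0.54) and cytokinesis genes (-0.015, 0.21 and 0.37) had their lowest there. The SD of log2 CPM was larger in ALDH_High than in ALDH_Low for 39 of 54 members, with medians of 0.18 and 0.14, where all genes had 0.22 and 0.18. The shares of all genes with a larger SD in ALDH_High, or highest or lowest in a given library, were not counted.

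**Figure D4:**
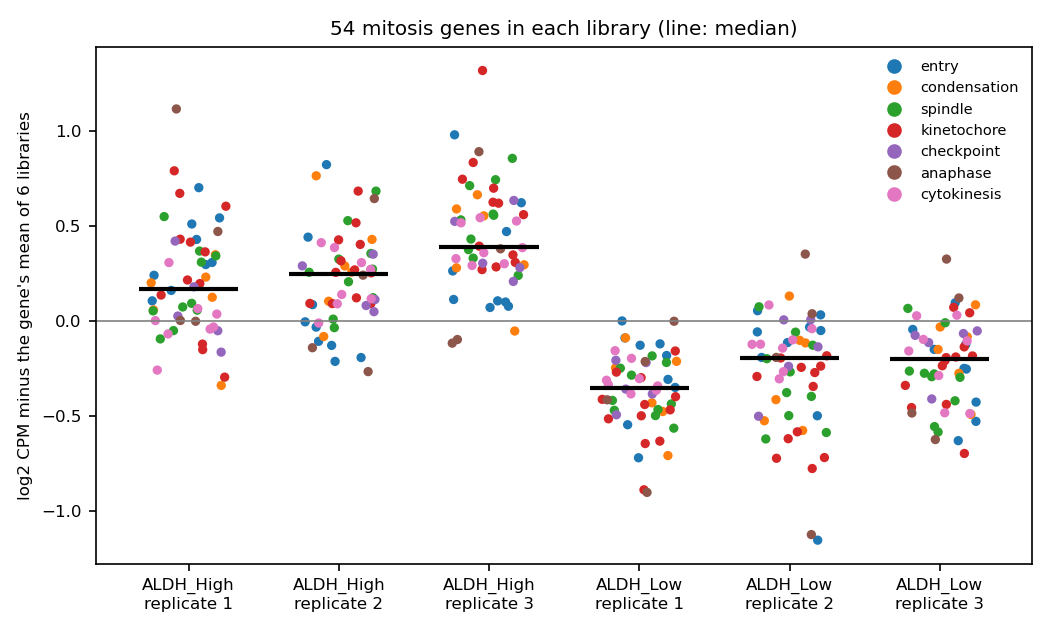
Level of each of the 54 genes in each library, as log2 CPM minus the gene's mean of the 6 libraries, coloured by step of mitosis; black lines are medians. The medians of the 3 ALDH_High libraries lie at 0.17 to 0.39 and those of the 3 ALDH_Low libraries at -0.35 to -0.20, while some genes lie below 0 in each ALDH_High library.

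Mitosis genes outside the set of 54 were counted from a list of 92, also chosen with earlier results of these data known. All 92 were tested. Of these, 30 rose (32.6%) and 2 fell, while 10.8% of all genes tested were higher and 9.83% lower. The median log2 fold change was 0.28 in this list (all genes tested, -0.013). The largest rises were those of FAM83D (1.59, edgeR adjusted p 2.54e-05), which aligns chromosomes on the spindle, CCNF (1.51, 6.01e-05), cyclin F, and BORA (1.47, 7.93e-05), which activates AURKA and PLK1. CCNF had 198, 144 and 174 CPM in ALDH_High and 54.1, 63.4 and 63.5 CPM in ALDH_Low, without overlap. FAM83D lies on chromosome 20, BORA on 13 and CCNF on 16, and the part of chromosome was not tested. Among the 18 anaphase genes of this list, most of them subunits of the anaphase-promoting complex, 4 rose and 1 fell. Of these risers, only CDC27 (0.39, edgeR adjusted p 0.0365) encodes a subunit. The others were FZR1 (0.87, 0.000437), the other activator of the complex, CDCA2 (0.87, 0.00141) and FBXO5 (0.80, 0.00305). The genes that fell were ANAPC15 (-0.39, 0.0365), a subunit of that complex, and ENSA (-0.33, 0.0499), an inhibitor of a mitotic phosphatase. Of the 28 kinetochore genes, 10 rose and 0 fell (at an unadjusted p below 0.05, 12 and 0). Leaving out ALDH_High library 3 or ALDH_Low library 1 gave 19 risers each, and the count of genes that fell was 3 without ALDH_High library 1, 1 without ALDH_High library 3 or ALDH_Low library 1 and 0 without ALDH_High library 2 or ALDH_Low library 2 or 3. The fall of ANAPC15 was lost without any 1 of 4 libraries (-0.40 to -0.32; ALDH_High libraries 2 and 3, ALDH_Low libraries 2 and 3) and that of ENSA without any 1 of 5 (-0.34 to -0.27; all but ALDH_High library 1).

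Among 12 genes of the MMB and DREAM complexes and their E2F partners, MYBL2 and RBL1 rose and 0 fell (edgeR; at an unadjusted p below 0.05, 5 higher and 0 lower, and by DESeq2 and limma 0 lower). These 2 are 16.7% of the list, where 10.8% of all genes tested rose, so the count says little about the complexes as a group. MYBL2, the activator subunit, had 464, 436 and 413 CPM in ALDH_High and 294, 308 and 322 CPM in ALDH_Low, without overlap (edgeR log2 fold change 0.51 ± 0.10 SE, adjusted p 0.00599). RBL1, the pocket protein p107, had 0.52 (0.0390), a call lost without any 1 of the 5 libraries other than ALDH_High library 1 (0.40 to 0.59). The count was 1 without ALDH_High library 2 or 3 or ALDH_Low library 2 or 3, and 4 without ALDH_High library 1. Both genes lie on chromosome 20, whose part in these results was not tested. The MuvB core genes LIN9, LIN37, LIN52, LIN54 and RBBP4 had log2 fold changes from 0.020 to 0.49 and did not pass. Of 32 S phase genes, counted beside them as another stage of the cycle, 4 rose (12.5%, near the 10.8% of all genes tested) and 1 fell, with a median of 0.015. At an unadjusted p below 0.05, 7 were higher and 5 lower, and with upper-quartile factors 4 rose and 4 fell. The risers were GINS1 (0.72, edgeR adjusted p 0.00162), GINS4 (0.55, 0.0289), both subunits of the replicative helicase, TYMS (0.50, 0.0160), which makes thymidylate, and CDC45 (0.40, 0.0276). RPA2, a single-strand DNA binding subunit, fell (-0.61, 0.00245). Among the risers, GINS1 lies on chromosome 20, TYMS on 18, GINS4 on 8 and CDC45 on 22, and the part of chromosome was not tested. Of the S phase genes, 2 rose without ALDH_High library 2, without ALDH_Low library 1 or without ALDH_Low library 2, and 2 fell without ALDH_High library 1. No test was made of the difference between these lists.

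**Figure D5:**
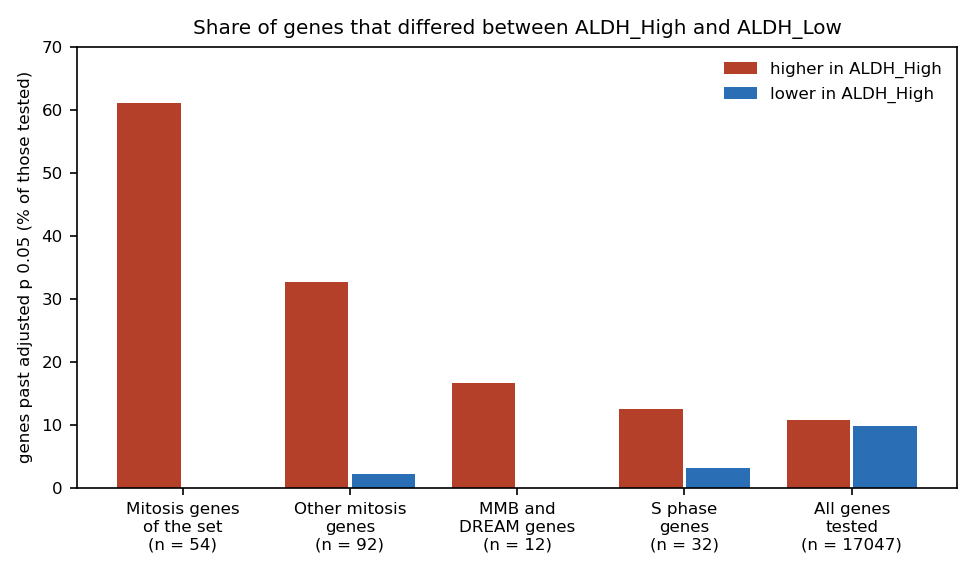
Share of genes past an edgeR adjusted p of 0.05, higher or lower in ALDH_High, in percent of those tested (bars from 0), for the 54 mitosis genes, 92 other mitosis genes, 12 MMB and DREAM genes, 32 S phase genes and all 17047 genes tested. The share that rose is 61.1% in the set and 10.8% over all genes.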

How the data were processed

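Poly(A) RNA libraries (TruSeq Stranded mRNA) of 6 sorted samples were sequenced. Per the submitters' processing notes, FastQC 0.11.3, STAR 2.5.1b, HTSeq 0.6.1, DESeq2 and the build GRCh38 were used, with no role given; the annotation release and the strand setting are not given in the sources used here. The deposited counts are whole numbers and were treated as rounded estimated counts, since 133 to 177 genes a library had 0 counts beside a TPM above 0. The deposited TPM values are length-corrected and sum to the same total in each library. Overlapping genes cannot be separated further.

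Columns were matched to samples by group and replicate number. In edgeR 4.0.16 (R 4.3.3), filterByExpr chose the genes, TMM set the scaling and the quasi-likelihood F test was used, two-sided, with Benjamini-Hochberg adjustment over all 17047 genes and a threshold of 0.05. Standard errors are the log2 fold change over the root of F. Alternatives used DESeq2 1.42.0 and limma 3.58.1 on log2(TPM + 1) or log2(TPM + 0.1). The code was tested on simulated counts. Positions are from GENCODE 44 (GRCh38), matched by Ensembl identifier.

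Within each step, values by library are given for the 3 members with the largest change past the threshold and the one with the smallest change; CCNB1, SMC4 and PTTG1 were added after their values were seen. Other lists are named by their 3 largest changes past the threshold in each direction. CDCA8, SPC24, SPC25, NCAPH, SMC2, FZR1, CDC27, CDCA2, FBXO5 and CDC45 were added after their values were seen. The members and lists were chosen with earlier results of these data known. The libraries of a group differed by more than sampling noise. Deviations from the group mean correlated at 0.15, 0.076 and 0.11 between libraries of the same number, and no pairing was assumed.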

Additional observations from a re-analysis of the deposited data

How the results depend on the processing

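The count of 33 members higher and 0 lower stayed within 1.5 times, with 0 lower, under every alternative run except 2: also asking for a log2 difference of 1 or more (10 higher, stricter by construction) and unfiltered limma on log2(TPM + 1) (18 higher, 34849 genes tested). The median log2 fold change of the members was 0.48 to 0.58 over all alternatives. Of the 33 risers, 18 were past the threshold in all 15 refits and 15 missed it in at least 1, and 7 of the other 21 passed in at least 1. For CCNB2 the sign changed with upper-quartile factors (-0.027) and without a library (-0.014 to 0.13 over the 6 fits), and for NCAPD2 with DESeq2 size factors (0.0016), no low-count filter (0.0048), DESeq2 (0.013), limma on log2(TPM + 1) with or without the TPM filter (0.043), on log2(TPM + 0.1) (0.043) and without a library (-0.057 to 0.059 over the 6 fits); both are close to 0. The replicate block gave 33 risers and 0 lower; 32 of them had also passed unblocked. Upper-quartile factors moved the median of all genes to -0.062 and gave 28 members higher.

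Other mitosis genes higher (30) were 18 in unfiltered limma, 15 at an adjusted p below 0.01, 5 with a log2 difference of 1 or more and 19 to 37 when 1 library was left out. Those lower (2) were 1 with DESeq2 size factors and with DESeq2, and 0 with no low-count filter, the replicate block, unfiltered limma, an adjusted p below 0.01 or a log2 difference of 1 or more, and 0 to 3 without a library. MMB and DREAM genes higher (2) were 1 with upper-quartile factors, in the 3 limma fits and at an adjusted p below 0.01, 0 with a log2 difference of 1 or more, and 1 to 4 without a library. S phase genes higher (4) were 1 at an adjusted p below 0.01 and 0 with a log2 difference of 1 or more, and 2 to 5 without a library; those lower (1) were 4 with upper-quartile factors, 0 with a log2 difference of 1 or more and 1 to 2 without a library. The cause of these moves was not tested, other than for the stricter thresholds.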
